A study of Mus musculus with 4 samples.

Results

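Cytosolic ribosomal protein genes accounted for 102 of the 793 peaks that the authors listed for the RNA-binding protein Trim71 (R783H), in 50 of 544 gene names. The members were taken by symbol from the gene name of each peak: names that begin with Rpl or Rps and a digit, together with Rplp0, Rplp1, Rplp2 and Rpsa, without the Rps6k kinases and Rps19bp1. Of these, 52 peaks lay in 27 genes of the large ribosomal subunit and 50 peaks in 23 genes of the small subunit. By HITS-CLIP, in which protein and RNA are crosslinked in the cell, the protein is precipitated and the attached RNA fragments are sequenced, the study made 2 libraries with the FLAG-M2 antibody (CLIP) and 2 input libraries of total RNA. All 4 came from mouse embryonic stem cells of the ES-E14TG2a background that carry FLAG-Trim71 (R783H), grown in medium with LIF and the inhibitors CHIR99021 and PD0325901. The series title ties the mutation to hydrocephalus. No group with wild-type Trim71 or without the tag was analysed here. The values therefore cannot be compared with the wild-type protein, and binding cannot be told apart from background of the precipitation. The labels do not say whether the line is a single clone.

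A ribosome consists of ribosomal RNAs and a large set of small, mostly basic proteins divided between its subunits. Messenger RNAs of these proteins are abundant, short and translated in step with cell growth through a pyrimidine tract at their start. Several of their genes also carry small nucleolar RNAs (snoRNAs) in introns. These are released from the spliced intron and guide chemical modification of ribosomal RNA, with box C/D snoRNAs (symbols Snord) directing ribose methylation and box H/ACA snoRNAs (Snora) directing pseudouridylation. Trim71, a stem cell protein of the TRIM-NHL family, contacts RNA through its NHL domain and is known for repressing target messenger RNAs.

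Each peak has 1 density in reads per 1000000 reads (RPM) and 1 log2 fold change of CLIP over input, both the authors' own values, and no value per library. No replicate error can therefore be given. The recovered totals were 11000000 CLIP reads and 82160000 input reads, and the 95% intervals below cover counting error only. Peaks of a gene share their source and are not replicates, so sets of peaks are described by medians, quartiles and counts. Where peaks lie close together, sums of RPM or reads over them may count a read more than once. This could not be checked. The list is one of peaks enriched over input, not of expression. Of 11 stem cell markers 4 had a peak (Sox2, Zfp42, Dppa5a and Sall4), and of 11 markers of primitive endoderm, fibroblasts and trophoblast none had.

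Among canonical cytosolic ribosomal protein genes, 27 of 47 large subunit genes had a peak (57.4%, Clopper-Pearson interval 42.2 to 71.7%), as had 22 of 32 small subunit genes (68.8%, 50 to 83.9%). The small subunit list includes Fau, a fusion gene that the symbol rule leaves out, and it was not listed. Not listed either were Rpl5 and Rpl11, which bind the 5S ribosomal RNA, Rplp0 and Rplp2 of the stalk, and Rps6, the substrate of the S6 kinases; a peak below the authors' unstated threshold would be missing in the same way. The remaining member is Rps4y2, called Rps4l in RefSeq, a copy related to Rps4x. Names with -ps, which mark pseudogenes, were found for 39 of the 50 members, 223 such copies in all. How reads that fit several copies were assigned is not given in the sources used here, so every member's density carries that uncertainty.

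A pair of the peaks lay wholly within a RefSeq promoter sequence that was to hand (250 bases before to 50 after a gene start), so their bases could be read. Both are labelled 5′ UTR and both are shown because they give the bases under a peak near the start of a ribosomal protein message. Capitals mark the bases that belong to the peak whether its start counts from 0 or from 1.
Rps21: gCTGGACAAGTGAGCAG
Rps25: tCTCTGAGCTTCGCCATG
The Rps21 site lay at chr2:180257431-180257447 on the plus strand (mm10, RefSeq sequence of GRCm38.p6). It was 52 to 68 bases past the first RefSeq start of the gene and 2 to 18 bases before a later one. Its 17 bases held 7 G and 3 C, and its log2 fold change of 6.72 (interval 5.54 to 8.21; 85 CLIP and 6 input reads) was the second highest of the members. The Rps25 site, chr9:44407740-44407757 on the plus strand, was 26 to 43 bases past the gene start and ended in the letters ATG. Its 18 bases held 6 C and 6 T, and it had a log2 fold change of 3.50 (2.89 to 4.12; 59 CLIP and 39 input reads). The counting intervals of these 2 sites did not overlap.

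Where on the gene the member peaks lay was compared with the rest of the list. Coding sequence was the main location of the members, with 52 of 102 peaks (51.0%, interval 40.9 to 61.0%), against 157 of the 691 other peaks (22.7%, 19.6 to 26.0%). The 3′ UTR, the largest class of the other peaks with 291 (42.1%, 38.4 to 45.9%), held 9 member peaks (8.82%, 4.11 to 16.1%). The 5′ UTR also held 9 member peaks, against 12 of the other peaks (1.74%, 0.900 to 3.01%). In these 3 classes the intervals of members and other peaks did not overlap, although they treat peaks of a gene as independent. Introns held 15 member peaks, or 14.7% (8.47 to 23.1%), close to the 15.3% of the other peaks. A further 9 lay in exons left unclassified, 7 carried a combined label of coding sequence with 3′ UTR, and 1 that of coding sequence with 5′ UTR. Region lengths were not set against these shares; messages of ribosomal proteins have short UTRs.

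**Figure D1:**
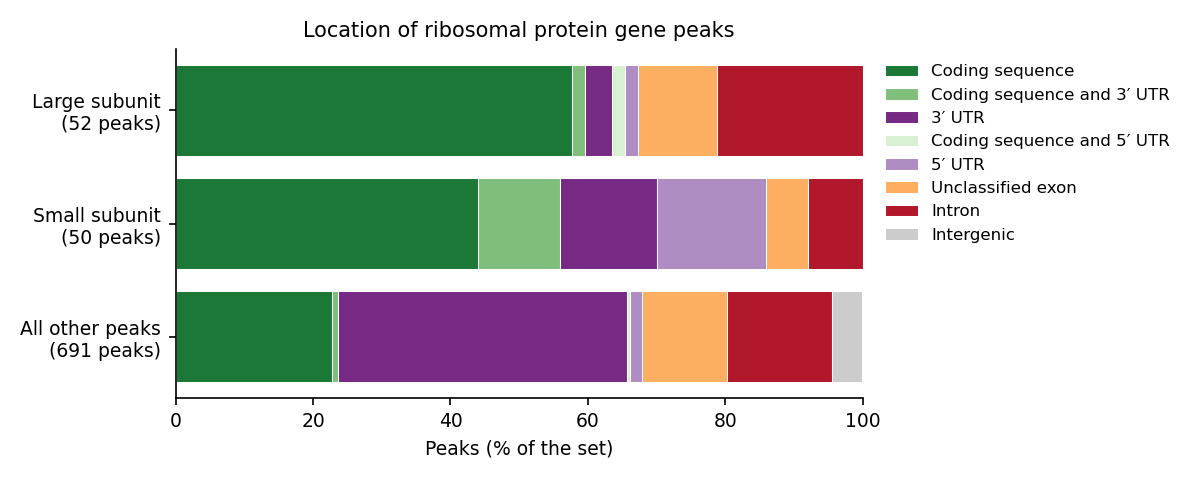
Share of peaks (% of the set, horizontal axis) in each location for large subunit genes, small subunit genes and all other listed peaks. Coding sequence makes up 57.7% of large and 44.0% of small subunit peaks against 22.7% of the other peaks, and the 3′ UTR segment is widest in the other peaks.

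Most of the members' summed density lay on snoRNA genes, in peaks of which some were labelled intronic and some exonic. Of the 102 peaks, 25 (24.5%, interval 16.5 to 34.0%) overlapped a RefSeq snoRNA gene, against 74 of the 691 other peaks (10.7%, 8.50 to 13.3%). They overlapped 22 snoRNA genes in 14 ribosomal protein genes, and 23 of the 25 had at least 90% of their bases on the snoRNA gene. Only 7 of the 25 covered at least 90% of the snoRNA gene itself. The median peak covered 54.4% of it and the lowest 5.38%. These 25 peaks held 69.5% of the members' summed RPM of 4663, and in the other peaks too snoRNA genes held most of the RPM, 54.5% of 17564. Of the members' RPM on snoRNA genes, 1929 lay in introns and 1311 under exonic labels. The members held 21.0% of the RPM of the whole list. Introns supplied 13 of the 25 and unclassified exons 8. The other 4 were labelled as messenger RNA: a coding-sequence peak of Rpl13a on Snord34, the Rps12 peaks on Snord100 and LOC115487513, and an Rps3 peak on Snord15b, the last 3 labelled 3′ UTR. The RefSeq table gives no strand for snoRNA genes, and peaks were read on their own strand, which equalled the gene's strand in all 35 members with a RefSeq promoter entry.

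The densest member peak was the Rps12 peak on LOC115487513, at chr10:23786472-23786542 on the minus strand. Rps12 encodes a protein of the small subunit's head. The peak had 499.7 RPM (5497 CLIP and 1762 input reads), a log2 fold change of 4.54 (4.46 to 4.62), and covered 95.9% of the 74-base snoRNA gene. It was the 8th densest of the list. The Rps12 peak on Snord100 had 65.5 RPM at a similar log2 fold change of 4.61 (4.39 to 4.84) and covered 98.5% of that gene. Both Rps12 peaks thus covered nearly the whole snoRNA gene under them although their label was 3′ UTR.

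Rpl7a, a large subunit gene, had 4 peaks, all intronic, on 3 snoRNA genes, and a summed density of 537 RPM. On the 68-base gene LOC115489588, the peak 1 to 37 bases from the upstream end had 139.7 RPM and a log2 fold change of 5.38 (5.20 to 5.57). The peak 60 to 64 bases from it had 143 RPM and a log2 fold change of 2.96 (2.86 to 3.07), the lowest of the 15 intronic peaks. These 2 peaks had 1537 and 1568 CLIP reads on 275 and 1503 input reads, so they differed more in input than in CLIP. The peak on LOC115489587 had 105 RPM and a log2 fold change of 4.37 (4.21 to 4.53), and that on LOC115489586 149 RPM and 5.06 (4.89 to 5.22).

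Rpl17, whose protein lines the exit tunnel of the large subunit, had 4 peaks that all lay on snoRNA genes. Their summed density, 705 RPM, was the highest of the members. A read that spans both close peaks on Gm23301 could count in each, so this rank is not settled. On Gm23301 the peak nearer the upstream end had 200.1 RPM and a log2 fold change of 4.83 (4.70 to 4.97), and the downstream peak 212 RPM and 5.24 (5.10 to 5.39). The order of enrichment on this snoRNA gene was thus the opposite of that on LOC115489588. The intronic peak on Snord58b had 157 RPM and a log2 fold change of 4.72 (4.57 to 4.87), with 70.3% of its bases on the snoRNA gene, the lowest share of the 25. The peak on Gm26202 covered the whole gene, at 136 RPM and a log2 fold change of 4.30 (4.16 to 4.44).

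Rpl4, whose protein also reaches into the exit tunnel, had 3 peaks on snoRNA genes that differed widely in enrichment. The intronic peak on Gm23344 had 190.3 RPM and a log2 fold change of 5.58 (5.41 to 5.75), and the intronic peak on LOC115487261 74.3 RPM and 5.85 (5.55 to 6.15), the highest of the intronic peaks. The unclassified-exon peak on Snord16a had 46.6 RPM and only 3.26 (3.07 to 3.45), with 400 input reads against 327 and 106. Rpl21 had its single peak on LOC115490268, which it matched from end to end, at 228 RPM and a log2 fold change of 4.88 (4.76 to 5.01). The 5 genes with the highest summed density, Rpl17, Rps12, Rpl7a and Rpl4 among them, held 59.8% of the members' RPM.

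Not every snoRNA gene under a member was densely covered. The peaks on Snord14a in Rps13 (20.6 RPM), Snord15b in Rps3 (11.6 RPM), Snord73a in Rps3a (8.91 RPM) and LOC115490074 in Rps20 (7.91 RPM) had log2 fold changes between 3.06 and 3.62. The peaks on box H/ACA genes were also low: Snora62 in Rpsa had 12.5 RPM and a log2 fold change of 2.21 (1.90 to 2.53), the lowest of all members, and Snora69 in Rpl39 had 9 RPM and 3.75 (3.26 to 4.25). The 9 peaks on genes named Snord had a median of 48.3 RPM and a range of 8.91 to 157. Most of the density, 2662 RPM in 14 peaks, lay on genes that RefSeq names only LOC or Gm. Box C/D and H/ACA snoRNAs could therefore not be compared by symbol over all 22 genes. The LOC or Gm genes were 65 to 74 bases long, and the Snord genes 55 to 145. Snora62 and Snora69 were 130 and 122 bases long. The Rpl23a peak on Snord4a had 48.3 RPM and a log2 fold change of 5.24 (4.93 to 5.56), and the Rpl13a peak on Snord34 103 RPM and 3.99 (3.84 to 4.14). A further 3 peaks lay within 50 bases of a snoRNA gene without touching it. They were an intronic Rpl23a peak 13 bases from Snord42a (73.9 RPM), an unclassified-exon peak of Rpl13 24 bases from Snord68 (87.8 RPM) and a coding-sequence peak of Rpl23 45 bases from Snora21 (26.5 RPM).

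**Figure D2:**
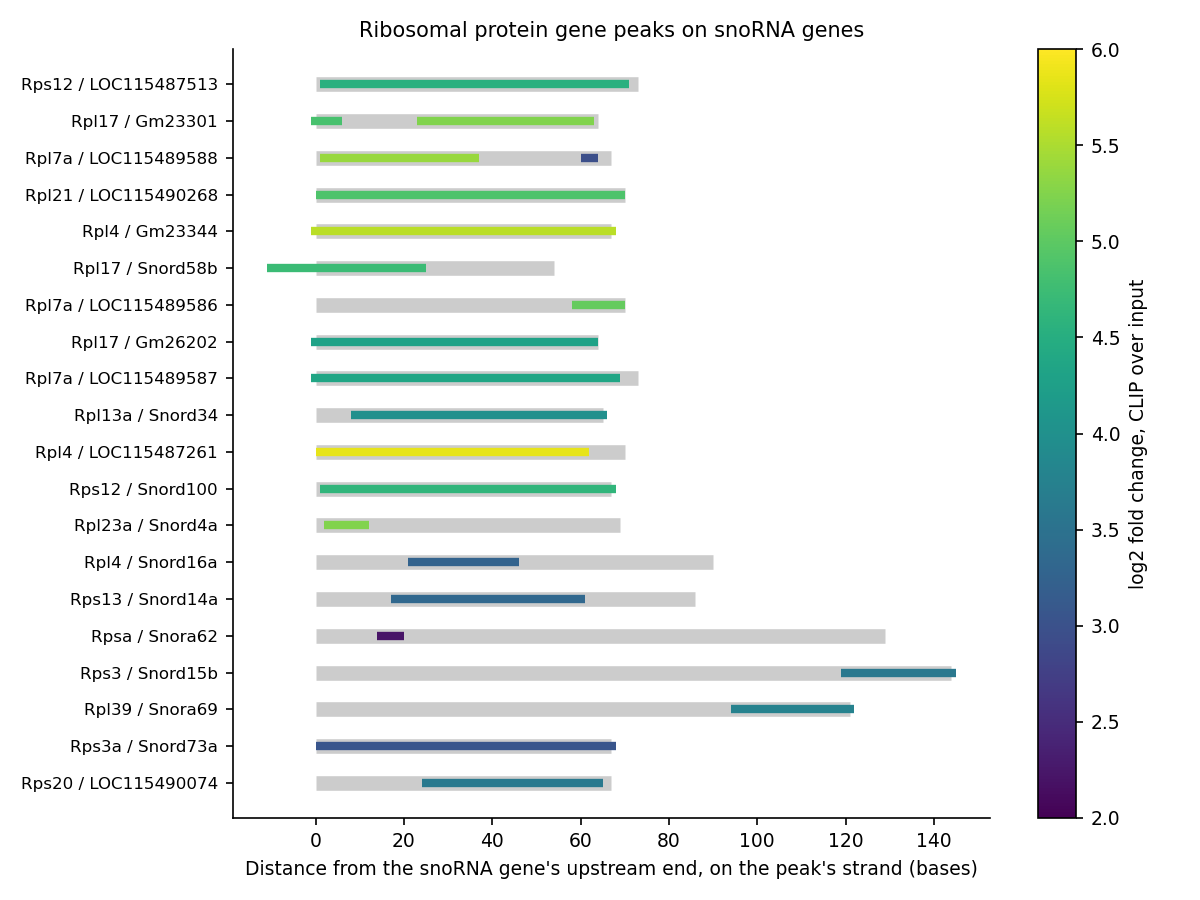
Member peaks on snoRNA genes, 22 of the 25 (coloured bars, colour for log2 fold change of CLIP over input), along 20 snoRNA genes (grey bars), as distance in bases from the gene's upstream end on the peak's strand, with the host gene named first and the highest summed density at the top. Peaks on LOC115487513, LOC115490268 and Gm23344 span nearly the whole gene, while LOC115489588 carries a pair of peaks that differ in colour.

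Intronic and exonic member peaks were then compared directly. In density the classes were far apart: the 15 intronic peaks had a median of 139.7 RPM (quartiles 74.1 and 174) and the 87 exonic peaks a median of 13.0 RPM (8.77 and 27.6), a difference of 3.43 on the log2 scale. Among all other listed peaks the medians were 7.77 RPM in introns and 7.64 RPM in exons. In enrichment the member classes differed less, with a median log2 fold change of 4.72 (3.96 and 5.13) in introns and 3.95 (3.38 and 4.77) in exons, a difference of 0.77 that fell to 0.41 with means. The other peaks had medians of 5.05 and 4.10. The intronic member peaks rested on a median of 369 input reads, against 19 in the other intronic peaks, and 13 of the 15 lay on snoRNA genes, against 21 of 106 (19.8%). The 2 intronic member peaks off snoRNA genes were those of Rpl23 (4.91 RPM) and Rpl23a.

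The exonic class was itself mixed. The 12 exonic peaks on snoRNA genes had a median of 56.9 RPM and ranged from 8.91 to 499.7 RPM. The 75 exonic peaks off them had a median of 12.4 RPM and ranged from 3.91 to 87.8 RPM, the top value being the Rpl13 peak near Snord68. Of the 10 densest member peaks, 7 lay in introns, 2 in unclassified exons and 1 in a 3′ UTR, and all 10 lay on snoRNA genes. They held 50.5% of the members' RPM.

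**Figure D3:**
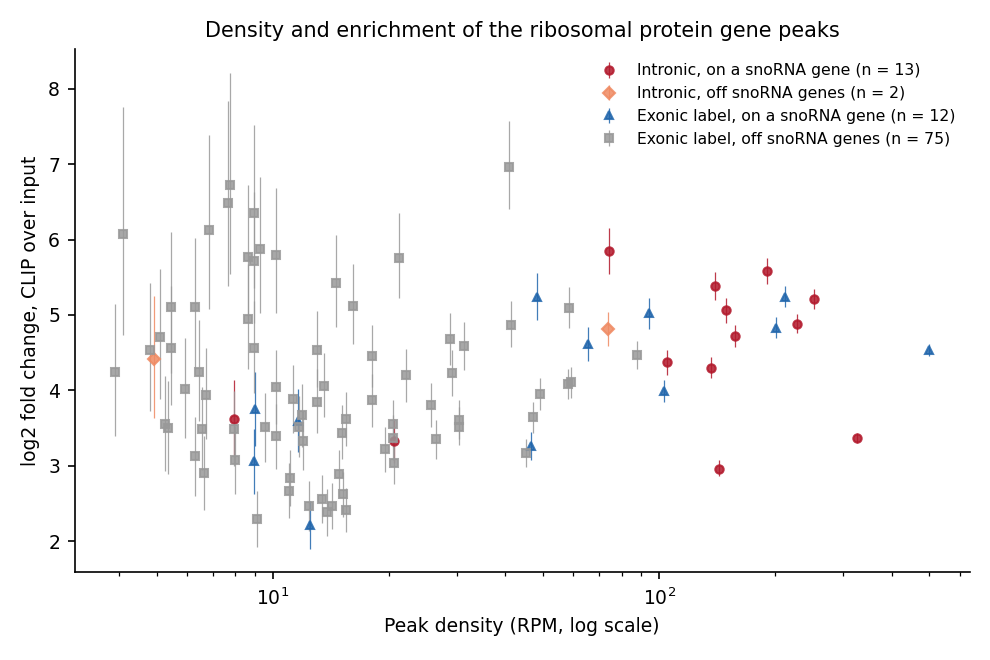
Density in RPM (horizontal, log scale) against log2 fold change of CLIP over input (vertical, bars show the 95% counting interval) for the 102 member peaks, by location and overlap with a snoRNA gene. All peaks above 87.8 RPM lie on snoRNA genes, whereas the highest log2 fold change, 6.96, belongs to an exonic peak at 40.8 RPM.

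By the counting interval of each peak, 77 of 102 member peaks (75.5%) had a lower bound above 8-fold enrichment, a share close to the 76.2% of the whole list. Among intronic member peaks it was 14 of 15, the exception being the downstream Rpl7a peak. Among exonic ones it was 63 of 87 (72.4%). Off snoRNA genes the share was 70.7% of exonic member peaks and 73.0% of the other exonic peaks. It was not computed for the other intronic peaks, whose median log2 fold change, 5.05, was above the members' 4.72. The intronic count is therefore not shown to be particular to the members.

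Within single genes, intronic and exonic reads were compared by Fisher's exact test on the summed CLIP and input reads of each class (two-sided, Benjamini-Hochberg adjusted over the 30 listed genes with both classes). The test covers counting error between pooled libraries only. It takes reads as independent, and reads that span close peaks of a class may enter it more than once. Its intervals would then be too narrow and its p-values too small. With only the densest peak of each class, 6 members differed in place of 5. At an adjusted p under 0.05, intronic reads were the more enriched in 46.7% of the 30 genes and exonic reads in 23.3%. Of the 7 members tested, 2 had higher enrichment in introns, 3 in exons and 2 did not pass. The difference thus had no common direction among ribosomal protein genes.

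Rpl4 showed the largest difference of the 7, with a log2 fold change of 5.65 in its introns and 3.26 in its exon peak, or 2.39 apart (2.15 to 2.63, Fisher's exact test, adjusted p = 5.44e-83). Rpl23, whose protein binds Mdm2, was higher in the intron by 1.06 (0.23 to 1.94, Fisher's exact test, adjusted p = 0.0181), on 54 intronic CLIP reads. In the opposite direction, Rpl17 differed by -0.52 (-0.66 to -0.38, Fisher's exact test, adjusted p = 1.40e-12) and Rpl23a by -0.43 (-0.81 to -0.04, Fisher's exact test, adjusted p = 0.0361). In Rpl4, Rpl17 and Rpl23a every exonic peak tested lay in an unclassified exon on a snoRNA gene, so in these 3 genes the comparison set peaks on or near snoRNA genes against each other.

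Only Rpl23, Rps13 and Rps20 had exonic peaks off snoRNA genes to compare with. Rps13 differed by 0.48 (0.01 to 0.96, Fisher's exact test, adjusted p = 0.0581). Rps20, which encodes a protein at the head of the small subunit, differed by -0.20 (-0.73 to 0.34, Fisher's exact test, adjusted p = 0.497). With only the densest peak of each class, the Rps20 difference became -1.48 and passed the threshold; its 4 exonic peaks ranged from 2.38 to 5.09, and the densest was the highest.

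**Figure D4:**
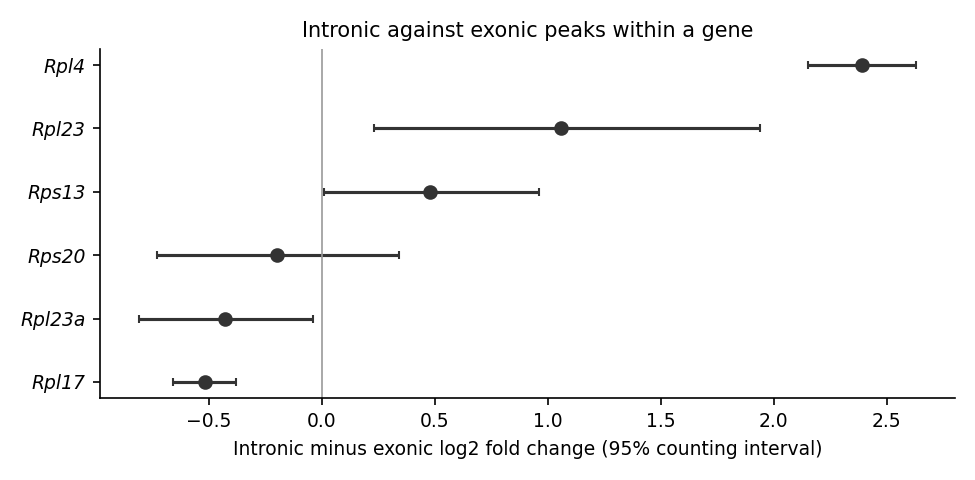
Difference in log2 fold change between intronic and exonic reads within 6 of the 7 members that have both (points), with the 95% counting interval (bars) and a line at 0. Rpl4 lies farthest to the right at 2.39 and Rpl17 farthest to the left at -0.52.

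Large and small subunit genes were compared next. The median density was 19.3 RPM in the 52 large subunit peaks (quartiles 7.98 and 74.0) and 13.0 RPM in the 50 small subunit peaks (8.95 and 24.6). The median log2 fold change was 4.21 (3.38 and 4.87) and 3.91 (3.46 and 4.86). Both differences were small beside the spread within each set, and neither kept its direction: without peaks within 50 bases of a snoRNA gene, large minus small was -0.10 for log2 RPM and -0.09 for log2 fold change. In those 34 and 40 peaks the medians were 11.6 and 12.5 RPM, and 3.91 and 3.99 in log2 fold change. Introns held 11 of the 52 large subunit peaks (21.2%, interval 11.1 to 34.7%) and 4 of the 50 small subunit peaks (8%, 2.22 to 19.2%), intervals that overlap. Genes with a snoRNA peak were about as frequent, 7 of 27 large and 7 of 23 small subunit genes. By the 8-fold bound, 38 of 52 large (73.1%) and 39 of 50 small subunit peaks (78.0%) were called, beside 76.2% of the list.

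Most UTR peaks of the members were in small subunit genes: 8 of the 9 in 5′ UTRs, 7 of the 9 in 3′ UTRs, 3 of them on snoRNA genes, and 6 of the 7 at the end of the coding sequence that reach into the 3′ UTR. Coding sequence held 30 large subunit peaks (57.7%, interval 43.2 to 71.3%) and 22 small subunit peaks (44.0%, 30.0 to 58.7%). The 5′ UTR intervals, 0.0487 to 10.3% for large and 7.17 to 29.1% for small subunit peaks, overlapped, which is not a test of a difference. The 8 small subunit peaks came from 5 genes, and a difference between the subunits was not tested.

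**Figure D5:**
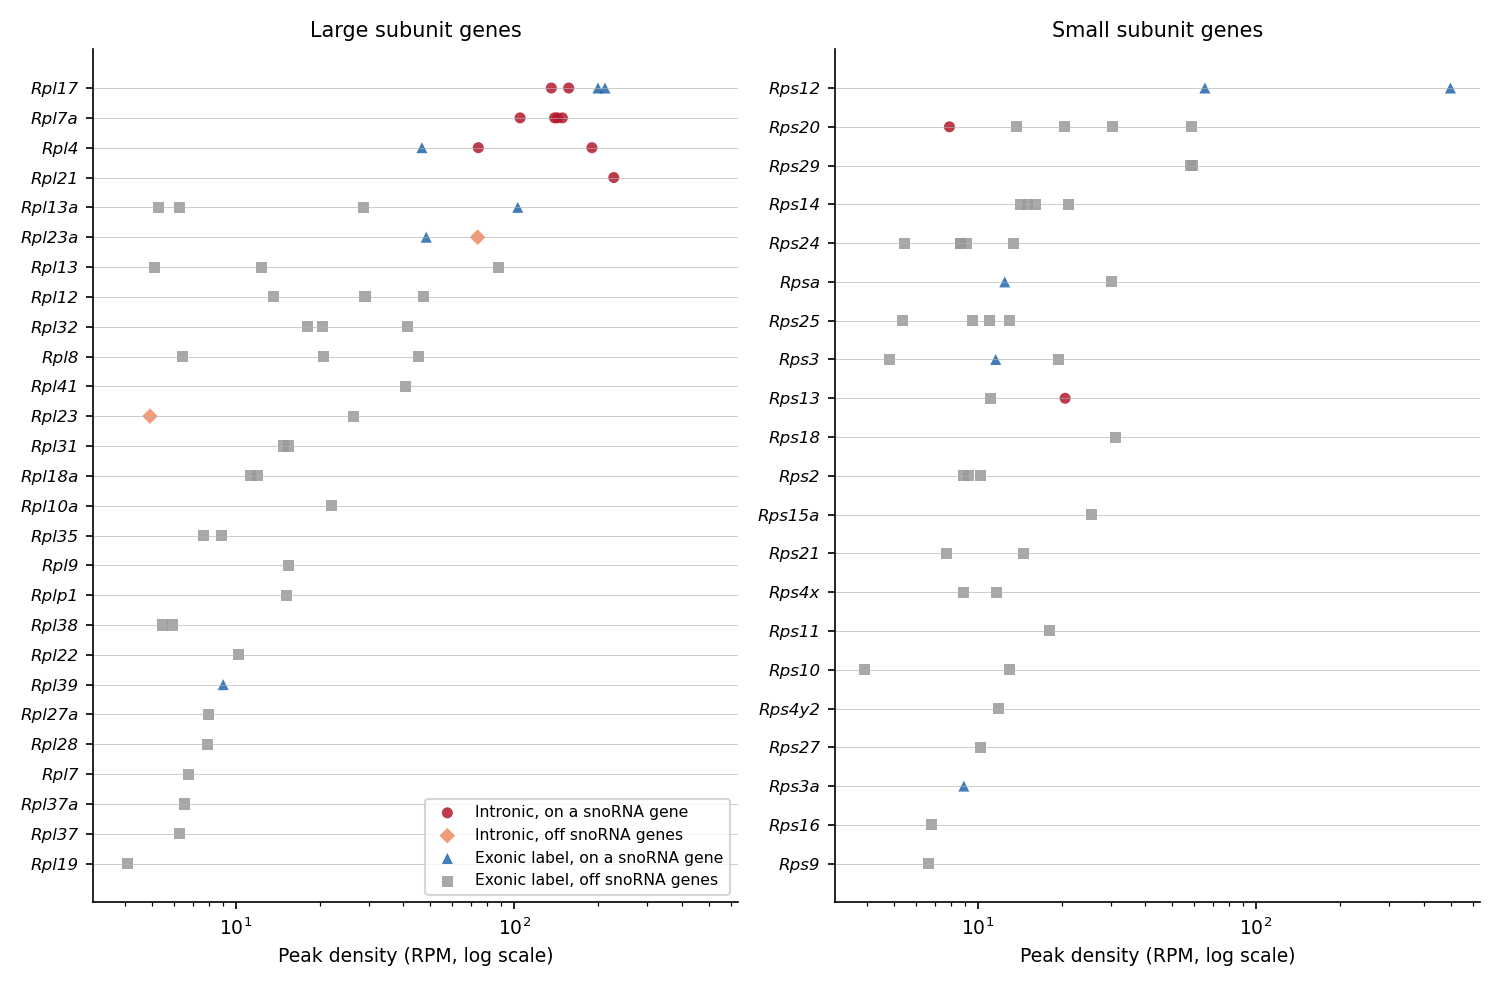
Density in RPM (horizontal, log scale) of every peak of the 27 large and of 21 of the 23 small subunit genes, ordered by summed density, with symbols for location and overlap with a snoRNA gene. Rpl17, Rpl7a, Rpl4 and Rpl21 in the left panel and Rps12 in the right panel hold the densest peaks, all on snoRNA genes.

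Off snoRNA genes, the members had 75 exonic peaks in 41 genes, with a summed density of 1344 RPM. Their median density, 12.4 RPM, was above the 7.18 RPM of the 504 other exonic peaks off snoRNA genes, while their median log2 fold change, 3.94 (quartiles 3.38 and 4.69), was near the 4.08 (3.46 and 4.82) of those peaks. Their median input was 77.0 reads against 37.0, so more CLIP reads went with more input reads. They spread along the gene, with a median position 47.0% of the way from start to end of the gene span and 38 of 75 in the upstream part.

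The most enriched member peak overall was in the 3′ UTR of Rpl41, which encodes a very short, basic protein of the large subunit. It had 40.8 RPM and a log2 fold change of 6.96 (6.40 to 7.57) from 449 CLIP and 27 input reads, at chr10:128548250-128548321 on the minus strand. The next peaks rested on fewer reads. After the Rps21 site shown above came both coding-sequence peaks of Rpl35, with 6.49 (5.38 to 7.84) and 6.35 (5.36 to 7.52) from 7 and 9 input reads. Coding-sequence peaks of Rps16 (6.13, 5.08 to 7.39) and Rpl19 (6.07, 4.74 to 7.76) had 8 and 5 input reads. All 3 peaks of Rps2, whose protein sits at the entry of the messenger RNA channel, lay between 5.71 and 5.87 with 13 to 15 input reads and 8.91 to 10.2 RPM. The tenth highest was a 3′ UTR peak of Rps24 at 5.77 (4.93 to 6.73). With the Rpl4 peak on LOC115487261 (5.85, 5.55 to 6.15), and without the lowest Rps2 peak, these are the 10 highest. Their counting intervals overlap in every pair except Rpl41 against Rpl4, and their order was not tested.

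In 5′ UTRs the 9 member peaks had a median log2 fold change of 5.09 and a range of 3.50 to 6.72, on a median of 38.0 input reads. Rps20 had a pair of close peaks there. The peak nearer the start of Rps20 had 58.5 RPM and 5.09 (4.83 to 5.37), and its neighbour 20.5 RPM and 3.56 (3.25 to 3.87), on nearly equal input (141 and 143 reads). Rps14, a protein of the small subunit platform, had 2 peaks at 5.12 (4.61 to 5.67) and 5.76 (5.23 to 6.35). Its coding-sequence peak was at 3.44 (3.09 to 3.80) and its peak at the border of coding sequence and 3′ UTR at 2.46 (2.16 to 2.77), so in Rps14 both 5′ UTR peaks were above the later peaks, with no overlap of the intervals. The second Rps21 peak had 14.6 RPM and 5.42 (4.84 to 6.06). Rpl13 had the sparsest of these peaks, at 5.09 RPM and 4.71 (3.89 to 5.61).

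Of the location classes with several member peaks, the border of coding sequence and 3′ UTR had the lowest median enrichment. Among the other listed peaks this class was also the lowest, with a median log2 fold change of 3.33 in 6 peaks. The 7 member peaks of this class had a median log2 fold change of 2.90 (range 2.30 to 4.56) on a median of 152 input reads. They lay in Rps24 (2.30 and 4.56), Rpl31 (2.41), Rps14, Rps9 (2.90), Rps29 (4.08) and Rps3 (4.54). The peak across the 5′ UTR border was in Rplp1, a protein of the ribosomal stalk, with 15.2 RPM, 203 input reads and 2.62 (2.32 to 2.92). Rps29 stood out in density, with 58.2 RPM under the combined label and 59.1 RPM in its coding sequence at nearly equal enrichment (4.08 and 4.11).

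Members with several exonic peaks off snoRNA genes showed how far peaks of a gene can differ. Whether the peaks of a gene lie on the same transcript was not tested. Rps24, mutated in Diamond-Blackfan anaemia, had 5 peaks from 2.30 to 5.77 in log2 fold change, with its coding-sequence peak at 2.56 (2.24 to 2.88) and its 3′ UTR peaks at 4.95 (4.28 to 5.67) and 5.77. Rps25 had 4, from 2.67 (2.31 to 3.03) in its 3′ UTR to 4.54 (4.05 to 5.05) in coding sequence. The 3 coding-sequence peaks of Rpl12 ranged from 13.6 to 47.1 RPM and from 3.64 to 4.23, those of Rpl8 from 6.45 to 45.3 RPM and from 3.04 to 4.24, and those of Rpl32 from 18.1 to 41.3 RPM and from 3.37 to 4.87. In Rpl12 and Rpl8 the densest peak was not the most enriched, whereas in Rpl32 it was. Rpl13a, which also has a role outside the ribosome as a translational repressor, had 3 peaks off snoRNA genes, from 5.27 to 28.7 RPM. Rpl13 ranged from 2.47 (2.14 to 2.80) in coding sequence to 4.71 in its 5′ UTR, and Rps3, at the entry of the messenger RNA channel, had 3.22 (2.92 to 3.51) in coding sequence.

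Multiple peaks were common among the members: 28 of 50 genes (56.0%, interval 41.3 to 70.0%) had at least 2, against 91 of 494 other genes (18.4%, 15.1 to 22.1%). By number, 22 members had 1 peak, 13 had 2, 8 had 3, 5 had 4, and 2 (Rps20 and Rps24) had 5. Member peaks rested on a median of 104 input reads, against 39.0 in the other peaks. Whether read depth accounts for the difference was not tested. Merging peaks of a gene within 50 bases, done for the members only, left 97 intervals.

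Related gene groups were also searched for in the list. Of 28 elongation, initiation and nascent-chain factors and related genes, 11 had a peak (39.3%, interval 21.5 to 59.4%), 22 peaks in all with a median log2 fold change of 3.81. Eef1a1, the elongation factor that delivers transfer RNA, had the densest of these, a coding-sequence peak at 93.3 RPM and 3.03 (2.90 to 3.16). Of 18 ribosome assembly factors 5 had a peak (27.8%, 9.69 to 53.5%), namely Npm1, Ncl, Nop56, Nop58 and Bop1. Both intervals overlap those of the ribosomal protein genes, and the shares were not tested against each other. Mitochondrial ribosomal proteins, encoded by nuclear genes of similar number, had 1 of 78 genes listed (1.28%, 0.0325 to 6.94%). It was Mrpl10, at 4.27 RPM, and the interval lies below both subunits' intervals. Message abundance was not set against these listed shares, and its part in the difference was not tested. No listed share over all genes was computed. Rack1, which sits on the small subunit and is named Gnb2l1 in the list, had an intronic peak on a snoRNA gene (29.3 RPM, 4.98) and exonic peaks at 24.1 and 14.8 RPM (2.87 and 3.28).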

How the data were processed

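A single table of peaks for the whole series was used. Per the file headers, the authors gave each peak a density in RPM and a fold change, with no library named. Columns of single libraries numbered 0. The deposited fold change was read as log2 because this gave whole input reads in 100.0% of 719 scorable peaks at a depth ratio of 7.47, against 27.8% when read as a linear ratio; all RPM values were whole multiples of 1 read at 11 reads per RPM. Reads recovered in this way include any constant the authors added. The submitters' processing notes name mm10, CASAVA 1.4, cutadapt, HISAT2 2.1.0 and SAMtools; a peak caller, its threshold and the handling of replicates are not given in the sources used here.

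Intervals are Clopper-Pearson at 95%. The Fisher test and the intervals were tested on simulated data, in which reads were independent, with Python 3.11.15 and scipy 1.17.1. Gene names matched a RefSeq table of GRCm38.p6 (48 current and 2 older symbols), and all 102 peaks lay within their gene. Of its 1340 snoRNA genes, those sharing at least 1 base with a peak were counted. Exonic means every location but intron and intergenic. Named items are the 10 densest and 10 most enriched members, the least enriched, members with at least 3 peaks or both classes, and 5′ UTR, combined-label and snoRNA peaks. Members and lists were chosen with earlier results of these data known. A few genes that meet these rules are not reported here by name or in plots of genes, but count in totals. Alternatives were other thresholds, merging, means and subsets of peaks.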

Additional observations from a re-analysis of the deposited data

How the results depend on the processing

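Values per library were not to hand, so the planned fits that leave out a library, edgeR, DESeq2 and a filter on low counts were not run. No paired analysis was possible because the peak table holds pooled values. Keeping the better 50% of the list left 48 member peaks in 30 genes. The intronic share of the members' RPM, 43.1%, became 38.2% without the 5 densest peaks and 39.9% after merging. With means, intronic minus exonic was 0.41 in log2 fold change and 2.40 in log2 RPM. Large minus small subunit, 0.31 in log2 fold change, was -0.05 in exonic peaks, 1.32 in intronic peaks and -0.09 away from snoRNA genes. For log2 RPM, 0.57 became -0.22 with 1 peak per gene, 0.21 in exonic peaks, 0.95 in intronic peaks and -0.10 away from snoRNA genes. A 16-fold bound called 39 member peaks (38.2%, list 35.4%) and a 4-fold bound 100 (98.0%, list 99.0%) in place of 77. The causes were not tested. With means and with 1 peak per gene, large minus small in log2 fold change was 0.13 and 0.12. These and the other alternatives tried, 24 in all, kept the direction of differences and kept counts within 1.5 times. Settings without peaks near snoRNA genes, and starts counted from 0, were chosen after seeing the data; the latter left 25 peaks on snoRNA genes. Depth limits the highest log2 fold changes, several of which rest on 5 to 9 input reads.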
